A study of Mus musculus with 7 samples.

Results

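The gestation course of inter-implantation uterus from Kdm6b cKO mice was followed in 6 specimens, 1 for each of gestation days 5, 8, 12, 14, 16 and 18. They were chosen by the submitters' per-cell assignment to the knockout genotype, the inter-implantation site and a pregnant time point, and they are 6 of the 28 specimens of the study. They hold 21749 of its 107443 cells, or 20.2%. No measured value entered the choice.

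Kdm6b encodes a histone demethylase that removes methyl groups from lysine 27 of histone H3, a mark of silenced genes. The uterus between implantation sites carries no embryo, and consists of myometrium, the smooth muscle that holds quiet through gestation and contracts at birth, with the endometrium it surrounds, together with vessels and immune cells. Its cell makeup is known to shift as pregnancy goes on, through growth of the muscle and remodelling of the endometrium.

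The study profiled single cells of control and Kdm6b cKO mouse uterus at successive gestation days, in tissue between implantation sites and in implantation-site tissue. All groups used here were pregnant inter-implantation tissue without a stated treatment, and differed by genotype (Kdm6b cKO, commonly a conditional knockout, or control) and by gestation day. The sources used here do not give the driver of the deletion, the strain or the age of the mice. Each genotype had 1 specimen per day, so no day has a replicate, and the labels state that a replicate of inter-implantation tissue at gestation day 5.5, taken here to be the specimens annotated as day 5, was made from the pooled uteri of 2 mice. Nothing states whether the days came from separate litters of one colony. The annotation holds no gene values, so the tissue and the loss of Kdm6b could not be checked against markers, and the authors' clusters keep their numbers without a cell type.

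Days 5 and 8 were processed in experiment 3 and days 12 to 18 in experiment 2, for both genotypes. A slope over all 6 days therefore also holds the step between experiments, which cannot be told apart from the step from day 8 to day 12 within cKO. The slope within days 12 to 18 is free of that step but rests on 4 specimens. The cKO specimens held 3310, 4157, 3855, 4566, 3988 and 1873 cells from day 5 to day 18, with median UMI counts per cell of 5589.5, 6983, 9978, 7453.5, 6847 and 6122. The control specimens held 3440, 3726, 1769, 4118, 4395 and 4726 cells with medians of 3907, 5467, 4733, 6572.5, 9339 and 9040 UMIs. From day 12 to day 18 the median UMIs thus stood lower at each later day in cKO, while in control the lowest of these days was day 12. Each specimen was read in 2 or 3 pools, and 526 of the cKO cells carry a barcode that also occurs in another pool of the series, 96 of them in another pool among the cKO cells. Shares are the percent of a specimen's cells, and intervals are exact (Clopper-Pearson) at 95%. Where a cluster had 0 cells, the limit given is instead 3 cells over the specimen's total. Both cover counting error only.

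The coarse partition (resolution 0.2, 19 clusters) showed a cKO uterus in which the largest population kept its share while several middle-sized ones were traded. Coarse cluster 0, with 33.8% of all cKO cells, averaged 34.1% ± 3.94 (SD, n = 6 days). It was at 33.4%, 38.1%, 37.4%, 30.4%, 28.5% and 36.5% from day 5 to day 18. These values lie in a narrow band with no order by day, and the log2 slope was -0.01 per day (SE 0.02, adjusted p = 0.653, edgeR). In control the same cluster was at 16.8%, 41.4%, 29.4%, 44.3%, 59.6% and 49.9%, so it was the lower of the genotypes at days 5 and 12 and the higher at the other days. The control slope passed (0.10, adjusted p = 0.0383, edgeR), but the difference of slopes did not (-0.12, SE 0.05, adjusted p = 0.0622, edgeR).

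**Figure D1:**
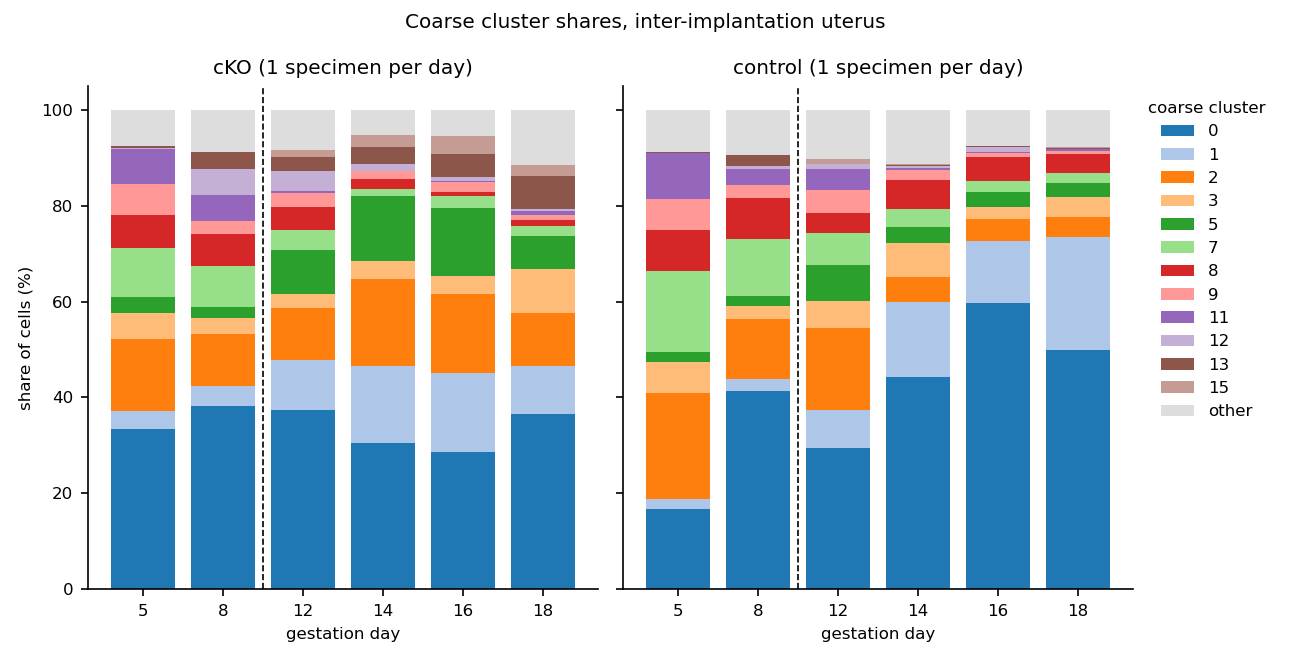
Share of cells (%, vertical) in each coarse cluster by gestation day (horizontal) for the 6 cKO and the 6 control inter-implantation specimens, with the dashed line between experiment 3 (left) and experiment 2 (right) and grey for the remaining clusters. Cluster 0 stays between 28.5% and 38.1% in cKO and spans 16.8% to 59.6% in control, while cluster 2 falls to 4.38% in control and is at 10.998% in cKO at day 18.

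Over days 5 to 18, 5 of 16 coarse clusters passed in cKO (31.2%), with clusters 1 and 15 rising and clusters 7, 8 and 11 falling. All had the same adjusted p of 0.0385 (edgeR quasi-likelihood F test, Benjamini-Hochberg). The median slope of the 16 clusters was 0.01 per day on the log2 scale.

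Coarse cluster 1 was at 3.81%, 4.31%, 10.4%, 16.1%, 16.6% and 10.2% from day 5 to day 18. It was highest at days 14 and 16, and both early days lay below every later one. Its log2 slope was 0.17 per day (SE 0.05). In control it was at 15.7% at day 14, 13.1% at day 16 and 23.5% at day 18 (exact interval 22.3 to 24.7). At day 18 cKO was at 10.2% (8.86 to 11.7). The difference of slopes, cKO minus control, did not pass over all days (-0.13, SE 0.07, adjusted p = 0.243, edgeR). Nor did it within days 12 to 18 (-0.22, SE 0.19, adjusted p = 0.402, edgeR).

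Coarse cluster 15 had 0 of 3310 cells at day 5 and 0 of 4157 at day 8, which allow shares of up to 0.0906% and 0.0722%. It then held 1.505%, 2.47%, 3.71% and 2.30% at days 12 to 18. The fitted slope of 0.68 per day (SE 0.20) starts from days at 0, so its size depends on the fit and only its sign is read. Cells of this cluster were shallow, with a median of 1165 UMIs and 522 genes in cKO, and 7.61% of their UMIs came from ribosomal protein genes, against 28.5% in coarse cluster 0.

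Among the falling clusters, coarse cluster 7 was at 10.2%, 8.47%, 4.202%, 1.34%, 2.51% and 2.08%, a log2 slope of -0.20 per day (SE 0.06). Coarse cluster 8 was at 7.01%, 6.86%, 4.72%, 2.12%, 1.03% and 1.28%, a slope of -0.23 (SE 0.07). Coarse cluster 11 was at 7.31%, 5.46%, 0.415%, 0.131%, 0.226% and 0.801%, a slope of -0.34 (SE 0.11). Cluster 7 was lower at each day up to day 14 and cluster 8 at each day up to day 16, whereas cluster 11 dropped in 1 step between days 8 and 12 and was higher again at day 18.

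None of these 5 calls held with the experiment as a covariate, when 0 of 16 clusters passed in edgeR and 0 had an unadjusted p under 0.05. The slope of cluster 8 was then -0.28 per day, about as large as without the covariate, and that of cluster 7 was -0.12. The slopes of clusters 1 and 15 were smaller, at 0.01 and 0.13, and that of cluster 11 turned to 0.11. Leaving out the cKO specimen of day 5, 8, 14 or 16 also took the count to 0 (edgeR), so the calls rest on all of these days.

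The other 11 coarse clusters did not pass. Coarse cluster 2 was at 15.0%, 10.8%, 10.9%, 18.2%, 16.5% and 10.998%, with its highest values at days 14 and 16. Coarse cluster 5 had its highest values at the same days, with 3.29%, 2.36%, 9.13%, 13.7%, 14.2% and 6.83% and a slope of 0.17 (SE 0.07, adjusted p = 0.0866, edgeR). Coarse cluster 9 went from 6.40% at day 5 to 1.12% at day 18 (slope -0.16, SE 0.07, adjusted p = 0.0866, edgeR).

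Coarse clusters 12, 14 and 13 had their highest shares at different days. Coarse cluster 12 was at 0.302% at day 5, 5.44% at day 8 and 4.202% at day 12, then 1.36%, 0.752% and 0.427%. Coarse cluster 14 held 0.0604% and 0.1203% at the early days and 4.202% at day 12, against 0.810% to 1.33% later. Its cells had a median of 373 genes and 4.65% ribosomal UMIs. Coarse cluster 13 was lowest at day 5, at 0.363%, and stood at 3.44%, 2.85%, 3.64%, 4.96% and 6.78% afterwards (slope 0.20, SE 0.09, adjusted p = 0.109, edgeR).

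Coarse cluster 3 was between 2.96% and 5.38% until day 16 and at 9.18% at day 18. Coarse cluster 6 alternated, with 2.45%, 5.97%, 1.84%, 2.54%, 2.11% and 5.71%. Coarse cluster 4, a cluster of shallow cells (median 515 UMIs), went from 4.05% at day 5 to 0.679% at day 14 and 2.40% at day 18. Coarse clusters 10, 16 and 17 were each under 1% on every day, and the slopes of 16 and 17 were tested only within days 12 to 18. Coarse cluster 18 held 2 cKO cells, both at day 5, and was not tested in cKO.

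Within days 12 to 18, 0 of 18 coarse clusters passed in cKO (0%, edgeR). There were 4 with an unadjusted p under 0.05, and DESeq2 called 1 and limma 0. The lowest adjusted p was 0.0505 (edgeR), for cluster 12 with a slope of -0.56 per day (SE 0.08). Coarse cluster 8 had a slope of -0.34 (SE 0.10, adjusted p = 0.172, edgeR), and cluster 7 one of -0.13 (SE 0.12, adjusted p = 0.523, edgeR). Cluster 1, which rose over all days, had a slope close to 0 (SE 0.10, adjusted p = 0.997, edgeR), with 10.4% at day 12 and 10.2% at day 18. Cluster 13 was higher at each later day of this window (slope 0.21, SE 0.05, adjusted p = 0.168, edgeR). Of the 5 clusters called over all days, 7 and 8 also had negative slopes here and 11 and 15 positive ones.

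**Figure D2:**
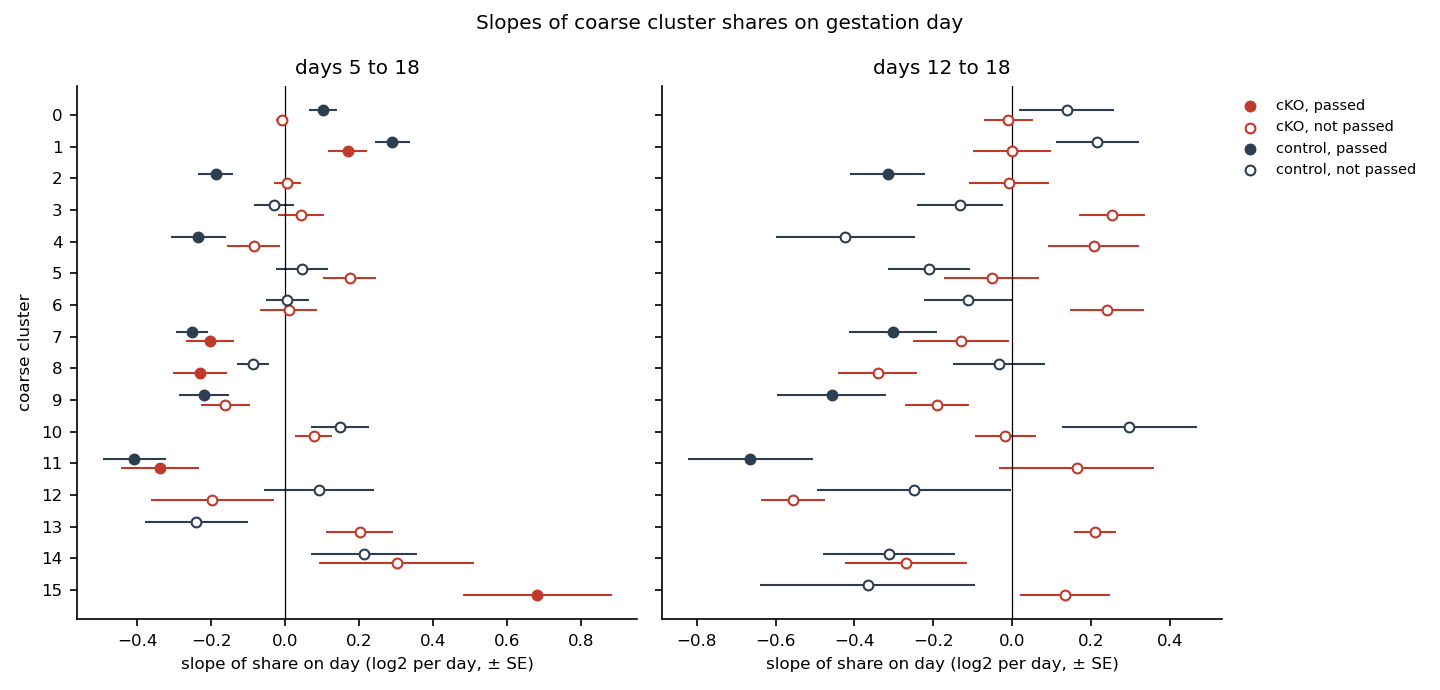
Slope of each coarse cluster's share on gestation day (log2 per day, horizontal, bars are ± SE) in cKO and control, over days 5 to 18 (left) and days 12 to 18 (right), with filled points for an adjusted p under 0.05 (edgeR). In cKO 5 slopes are filled on the left and none on the right, and coarse cluster 11 lies at -0.66 in control and 0.16 in cKO on the right.

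In the fine partition (resolution 2, 61 clusters) the makeup of coarse cluster 0 differed by day while its share stayed steady. At day 5 its cells were mainly fine cluster 2 (42.1% of the cells of coarse cluster 0), fine cluster 0 (28.2%) and fine cluster 6 (15.4%). At day 12 fine cluster 13 made up 36.5% and fine cluster 5 made up 25.6%, while fine cluster 2 was at 7.15%. At day 16 fine cluster 4 led with 40.2%. At day 18 no part led clearly, with fine cluster 2 at 23.3%, fine cluster 4 at 17.3% and fine cluster 0 at 16.8%. In control fine cluster 0 made up 59.4% of coarse cluster 0 at day 18.

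The 5 fine clusters with the largest mean share in cKO were 2, 4, 9, 0 and 6, and none of them passed in cKO over days 5 to 18. Fine cluster 2 was at 14.1%, 11.4%, 2.67%, 6.64%, 3.03% and 8.49% (mean 7.71% ± 4.54, SD, n = 6 days), so the later days lay below both early days. Fine cluster 4 was at 1.33%, 2.55%, 3.45%, 7.91%, 11.48% and 6.35% (5.51% ± 3.81), higher at each day up to day 16. Fine cluster 9, a part of coarse cluster 5, was at 0.544%, 0.698%, 4.82%, 9.86%, 10.8% and 5.07% (5.30% ± 4.36).

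Fine cluster 0 was at 9.43%, 11.02%, 1.32%, 1.45%, 1.73% and 6.14% (5.18% ± 4.33), and fine cluster 6 at 5.17%, 8.28%, 4.57%, 3.22%, 3.44% and 5.61% (5.04% ± 1.84). Clusters 2, 0 and 6 were each higher at day 18 than at day 16, and cluster 6 was highest at day 8. Their slopes of -0.09, -0.12 and -0.05 per day had adjusted p-values of 0.339, 0.339 and 0.546 (edgeR).

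Over days 5 to 18, 3 of 47 fine clusters passed in cKO (6.38%, edgeR), and all fell, while 16 had an unadjusted p under 0.05. Fine cluster 31, a part of coarse cluster 9, was at 5.29%, 2.07%, 1.48%, 0.548%, 0.476% and 0.0534%, lower at every later day (slope -0.37, SE 0.07, adjusted p = 0.0411, edgeR). Fine cluster 21, a part of coarse cluster 8, was at 3.78%, 2.96%, 2.15%, 0.635%, 0.476% and 0.374%, also lower at every later day (slope -0.28, SE 0.07, adjusted p = 0.0413, edgeR). Fine cluster 45 was at 0.937% and 1.40% early and at most 0.0778% from day 12 on, with 0 of 3988 cells at day 16, which allows a share of up to 0.0752% (slope -0.58, SE 0.13, adjusted p = 0.0411, edgeR).

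Fine clusters 31 and 21 had slopes within days 12 to 18 of -0.55 (SE 0.14) and -0.44 (SE 0.12) with adjusted p-values of 0.0806 and 0.0926 (edgeR). Fine cluster 45 was too rare to test there. No fine cluster of 46 passed in that window (0%, edgeR), with 14 at an unadjusted p under 0.05 and with 3 calls in limma and 15 in DESeq2. With the experiment as a covariate 0 of 47 passed over days 5 to 18 (edgeR), although 7 had an unadjusted p below 0.05. The slopes of fine clusters 31 and 21 were then -0.55 and -0.36, no smaller than without it, and that of fine cluster 45 was -0.05. Without the specimen of day 8, 14 or 16 the count was 0, without day 5 it was 1, without day 12 it was 8 and without day 18 it was 11 (edgeR).

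The control specimens of the same days served as the reference for trends that cKO lacked. In control 8 of 18 coarse clusters passed over days 5 to 18 (44.4%) and 21 of 48 fine clusters (43.8%, edgeR). Of the 8 coarse control calls, 7 were tested in cKO, 5 of these had a slope of the same sign and 3 passed there too. Of the 21 fine control calls, 17 were tested in cKO, 15 had the same sign and 2 passed there. The difference of slopes passed for 1 of these coarse and 3 of these fine clusters, so for the others a lost trend was not shown. Within days 12 to 18 the control slopes passed for 4 of 17 coarse (23.5%) and 22 of 44 fine clusters (50%, edgeR), with median slopes of -0.23 and -0.25 over all clusters tested. These counts cannot be set directly against those of cKO, since the fits reached a call at unlike ratios of slope to SE. Fine cluster 39 in cKO, at -0.62 (SE 0.13), did not pass (adjusted p = 0.0666, edgeR). Fine cluster 9 in control, at -0.24 (SE 0.10), did (adjusted p = 0.0485, edgeR). Of those 22 fine clusters, 9 had the same sign and 13 the opposite sign in cKO, and the difference passed for 8. Over all fine clusters tested in that window, 31 of 44 slopes were negative in control and 18 of 46 in cKO, so opposite signs were common. Among the opposite ones, clusters 7, 9, 17, 27, 36 and 41 had cKO slopes smaller than their SE. The control slope chose these clusters and also enters the difference.

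The test of the difference of slopes over days 5 to 18, with the day as a factor, called 3 of 18 coarse clusters (16.7%, edgeR). Coarse cluster 2 fell in control, with 22.1%, 12.6%, 17.1%, 5.25%, 4.46% and 4.38%, and had no such fall in cKO, where day 18 stood at 10.998%. Control was the higher of the genotypes at days 5, 8 and 12, and cKO at days 14, 16 and 18. The log2 difference of slopes, cKO minus control, was 0.19 per day (SE 0.07, adjusted p = 0.0288, edgeR), and within days 12 to 18 it was 0.30 (SE 0.19, adjusted p = 0.327, edgeR). The control slope passed both over all days (-0.19) and within days 12 to 18 (-0.32), while the cKO slopes were 0.01 and -0.01.

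Coarse cluster 13 was at 0.116%, 2.23%, 0.0565%, 0.146%, 0.137% and 0.233% in control. Both genotypes stood higher at day 8 than at day 5, and control was low again from day 12 on while cKO was not. The difference of slopes was 0.36 (SE 0.12, adjusted p = 0.0288, edgeR) over all days but -0.04 (SE 0.22, adjusted p = 0.860, edgeR) within days 12 to 18. In that window control held only 1, 6, 6 and 11 cells of the cluster. Coarse cluster 15 was at 0.0581%, 0.0537%, 0.904%, 0.291%, 0.137% and 0.212% in control, where days 5 and 8 rest on 2 cells each. It was higher in cKO than in control at each day from day 12 on, with 1 specimen on each side. Its difference was 0.63 (SE 0.19, adjusted p = 0.0254, edgeR). The cluster met the cell filter through cKO, and in control alone it was too rare to be tested over days 5 to 18. With cKO at 0 cells on days 5 and 8, the size of the difference depends on the fit.

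The remaining coarse call came from days 12 to 18 alone, where 1 of 18 differences passed (5.56%, edgeR). Coarse cluster 11 was at 9.62%, 3.49%, 4.52%, 0.559%, 0.137% and 0.339% in control, against 7.31%, 5.46%, 0.415%, 0.131%, 0.226% and 0.801% in cKO. The fall was thus present in both genotypes, but the low level was reached by day 12 in cKO and by day 14 in control. At day 12 the exact intervals were 0.237% to 0.673% in cKO and 3.60% to 5.60% in control. The difference of slopes was 0.83 within days 12 to 18 (SE 0.25, adjusted p = 0.0405, edgeR) and 0.04 over all days (SE 0.11, adjusted p = 0.833, edgeR). In these specimens the cKO change lies earlier, not later, than the control change, and it coincides in cKO with the change of experiment. This order rests on the single control specimen of day 12, with 80 of 1769 cells. From day 12 on, cKO held 16, 6, 9 and 15 cells of the cluster.

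Among fine clusters, 8 of 48 differences passed over days 5 to 18 (16.7%, edgeR), 2 of them negative and 6 positive. Fine cluster 0 was lower in cKO than in control from day 8 on. Control was at 4.36%, 15.3%, 3.28%, 9.71%, 21.3% and 29.6%, whereas cKO stayed at 1.32% to 1.73% from day 12 to day 16 and reached 6.14% at day 18. The difference was -0.31 (SE 0.09, adjusted p = 0.0240, edgeR). Within days 12 to 18 both slopes were positive, 0.36 in cKO and 0.53 in control, and their difference of -0.18 (SE 0.27, adjusted p = 0.651, edgeR) did not pass.

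Fine cluster 3, a part of coarse cluster 1, had its widest gap between the genotypes, in percentage points, at day 18. Control was at 0.116%, 0.671%, 1.58%, 7.09%, 6.85% and 14.6%, and cKO at 1.21%, 1.56%, 2.41%, 5.12%, 8.68% and 3.42%. It was higher in cKO at days 5, 8, 12 and 16 and lower at days 14 and 18. At day 18 the exact intervals were 2.64% to 4.34% in cKO and 13.6% to 15.6% in control. The difference was -0.33 (SE 0.09, adjusted p = 0.0240, edgeR).

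Fine clusters 7 and 9 were populations that control had at low share in late gestation and cKO did not. Fine cluster 7, a part of coarse cluster 2, was at 4.23%, 2.48%, 2.26%, 9.31%, 7.47% and 3.68% in cKO and at 6.77%, 2.15%, 2.60%, 1.34%, 0.774% and 0.719% in control. The genotypes were close at days 8 and 12 and apart from day 14 on. The difference was 0.29 (SE 0.09, adjusted p = 0.0240, edgeR). Fine cluster 9 was at 0.494%, 0.456%, 2.32%, 1.04%, 0.660% and 0.868% in control, so it peaked at day 12 there and at day 16, with 10.8%, in cKO. Its difference was 0.27 (SE 0.09, adjusted p = 0.0425, edgeR).

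Fine cluster 13 was at 0.846%, 1.27%, 13.6%, 5.58%, 3.61% and 2.67% in cKO, so that it stood highest at day 12 and lower at each later day. In control it never exceeded 1.05%. Its difference over all days was 0.29 (SE 0.10, adjusted p = 0.0452, edgeR), while within days 12 to 18 it was -0.07 (SE 0.28, adjusted p = 0.849, edgeR). Fine cluster 28 holds 98.0% of coarse cluster 13 and repeats its course, with a difference of 0.36 (SE 0.10, adjusted p = 0.0240, edgeR) that was -0.03 within days 12 to 18. For both clusters the positive difference over all days was thus not present within days 12 to 18. The control side of that window rests on few cells, with 9, 18, 13 and 6 of fine cluster 13 and 1, 6, 6 and 11 of coarse cluster 13. The differences there therefore say little about the course.

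Fine cluster 38 contains all cells of coarse cluster 15 and had a difference of 0.53 (SE 0.15, adjusted p = 0.0240, edgeR). When only cells of at least 500 genes were kept, neither was called. Fine cluster 42, a part of coarse cluster 2 with deep cells (median 32257 UMIs), was at 1.54%, 0.650%, 1.84%, 1.75%, 1.45% and 0.320% in cKO. Control fell from 1.25% to 0 of 4726 cells, which allows up to 0.0635%. At days 12, 14 and 16 control held only 7, 7 and 2 cells of it within coarse cluster 2. In control alone it was too rare to be tested within days 12 to 18, so it met the cell filter there through cKO. The difference was 0.45 (SE 0.12, adjusted p = 0.0240, edgeR), and within days 12 to 18 it was 0.68 (SE 0.31, adjusted p = 0.136, edgeR).

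**Figure D3:**
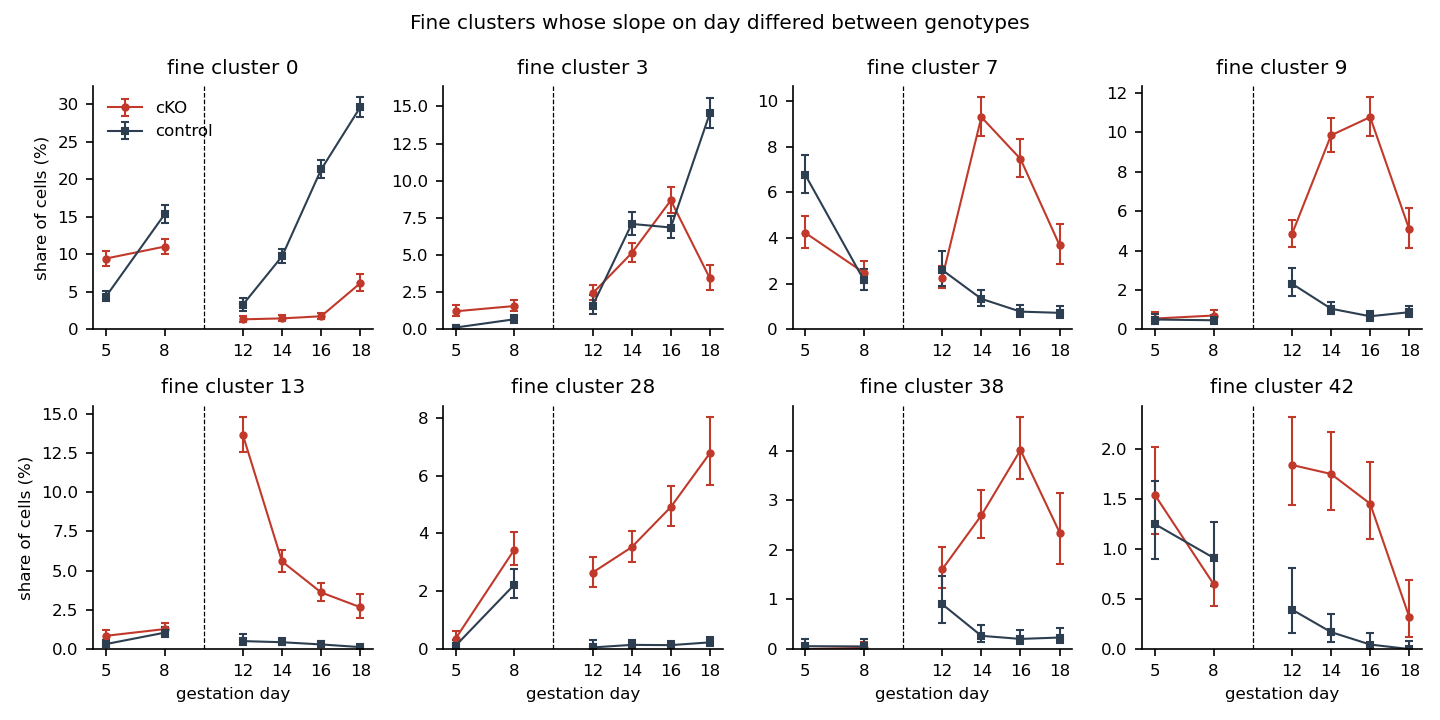
Share of cells (%, vertical, bars are exact 95% intervals for counting error) of the 8 fine clusters whose slope on gestation day (horizontal) differed between genotypes, with cKO in red, control in dark blue, 1 specimen per point, and a dashed line between the experiments. Fine clusters 0 and 3 reach 29.6% and 14.6% in control at day 18 but 6.14% and 3.42% in cKO, and fine cluster 13 peaks in cKO at 13.6% on day 12.

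These calls rest on few specimens. Leaving out either specimen of day 8 or 16 ended all fine and coarse differences over days 5 to 18, as did leaving out the control specimen of day 5, and without the cKO specimen of day 5 a single fine call was left (edgeR).

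Fitted within days 12 to 18, 8 of 46 fine differences passed (17.4%, edgeR), and none of the 8 clusters named above was among them. The median of all differences in that window was 0.14, with 27 positive and 19 negative. For coarse clusters it was 0.17, with 11 positive and 7 negative. The 6 fine clusters with a positive call had negative control slopes in that window, and the 2 with a negative call had positive ones. The control slope is part of the difference that chose these clusters, so its sign is no separate result. Of all 44 fine control slopes in that window, 31 were negative.

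Fine clusters 14 and 17 are parts of coarse cluster 3. Fine cluster 14 was at 0.674%, 1.64%, 0.978% and 5.45% in cKO from day 12 to day 18 and at 2.04%, 4.76%, 1.09% and 0.339% in control, so it was lower in cKO at days 12 and 14 and higher at day 18 (difference 0.91, SE 0.25, adjusted p = 0.00947, edgeR). Fine cluster 17 was at 1.40%, 1.05%, 1.25% and 1.87% in cKO and at 1.70%, 1.34%, 0.205% and 0.106% in control, so the genotypes were close at days 12 and 14 and cKO was higher afterwards (0.79, SE 0.22, adjusted p = 0.00954, edgeR).

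Fine cluster 18 is nearly all of coarse cluster 11 and had a difference of 0.83 (SE 0.21, adjusted p = 0.00947, edgeR). Fine clusters 1 and 32, parts of coarse clusters 4 and 6, hold shallow cells, with medians of 485.5 and 527 UMIs in cKO. Fine cluster 1 was at 0.467%, 0.416%, 0.552% and 1.49% in cKO and at 1.41%, 0.631%, 0.387% and 0.233% in control (0.69, SE 0.21, adjusted p = 0.0139, edgeR). Fine cluster 32 was at 0.259%, 0.482%, 0.627% and 1.65% in cKO and at 1.75%, 1.12%, 0.774% and 0.614% in control (0.67, SE 0.21, adjusted p = 0.0187, edgeR). Both were lower in cKO at days 12 and 14 and higher at day 18.

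Fine clusters 29 and 49 are small parts of coarse cluster 0. Fine cluster 29 was at 1.32%, 0.920%, 1.55% and 2.62% in cKO and at 7.01%, 1.21%, 1.25% and 0.889% in control, whose day 12 stands apart (0.63, SE 0.23, adjusted p = 0.0372, edgeR). Fine cluster 49 was at 0.649%, 0.504%, 0.401% and 0.267% in cKO and at 0.170%, 0.243%, 0.751% and 0.994% in control (-0.68, SE 0.23, adjusted p = 0.0274, edgeR). Fine cluster 24, a part of coarse cluster 1, was lower at each later day in cKO, from 3.40% to 0.801%, and in control went from 0.565% to 3.07% (-0.69, SE 0.24, adjusted p = 0.0296, edgeR). None of these 8 differences passed over days 5 to 18 (edgeR).

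The size of the overall change was measured as the share of cells that would have to move to another fine cluster to make 2 specimens alike. Between neighbouring cKO days it was 23.5% for days 5 and 8, 45.7% for days 8 and 12, 32.7% for days 12 and 14, 18.4% for days 14 and 16 and 30.7% for days 16 and 18. The largest step falls between the experiments, and the smallest lies between days 14 and 16. Pools of a single cKO specimen differed by less, by 8.77% to 9.04% at day 14 and 9.62% to 11.1% at day 16, and by up to 18.03% at day 18, the specimen with the fewest cells. At the coarse level days 14 and 16 differed by 5.75%.

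Against the control specimen of the same day, cKO differed by 25.8% and 17.99% at days 5 and 8 and by 41.8%, 41.7%, 46.3% and 50.6% at days 12, 14, 16 and 18. Differences at day 5 and at days 12 to 18 were above the largest between pools of one specimen, 18.03%, but pools are not replicates. Neighbouring days of one genotype differed by up to 45.7% in cKO and 39.4% in control, both between days 8 and 12. Of the control days, day 8 was the closest to both early cKO specimens, at 19.8% and 17.99%, and day 12 was the closest to cKO day 12. The control specimen of day 14 was the closest to cKO days 14, 16 and 18, at 41.7%, 45.5% and 30.9%. For cKO days 14 and 16, control day 16 was only little farther, at 44.2% and 46.3%. The cKO day 18 composition was therefore nearer to control day 14 than to control day 18, by 30.9% against 50.6%. The cKO day 18 specimen was also nearer to cKO day 5 (43.5%) than cKO day 16 was (57.5%), while in control the distance from day 5 was larger at each later day, up to 69.6%. These are distances between single specimens, with no test.

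**Figure D4:**
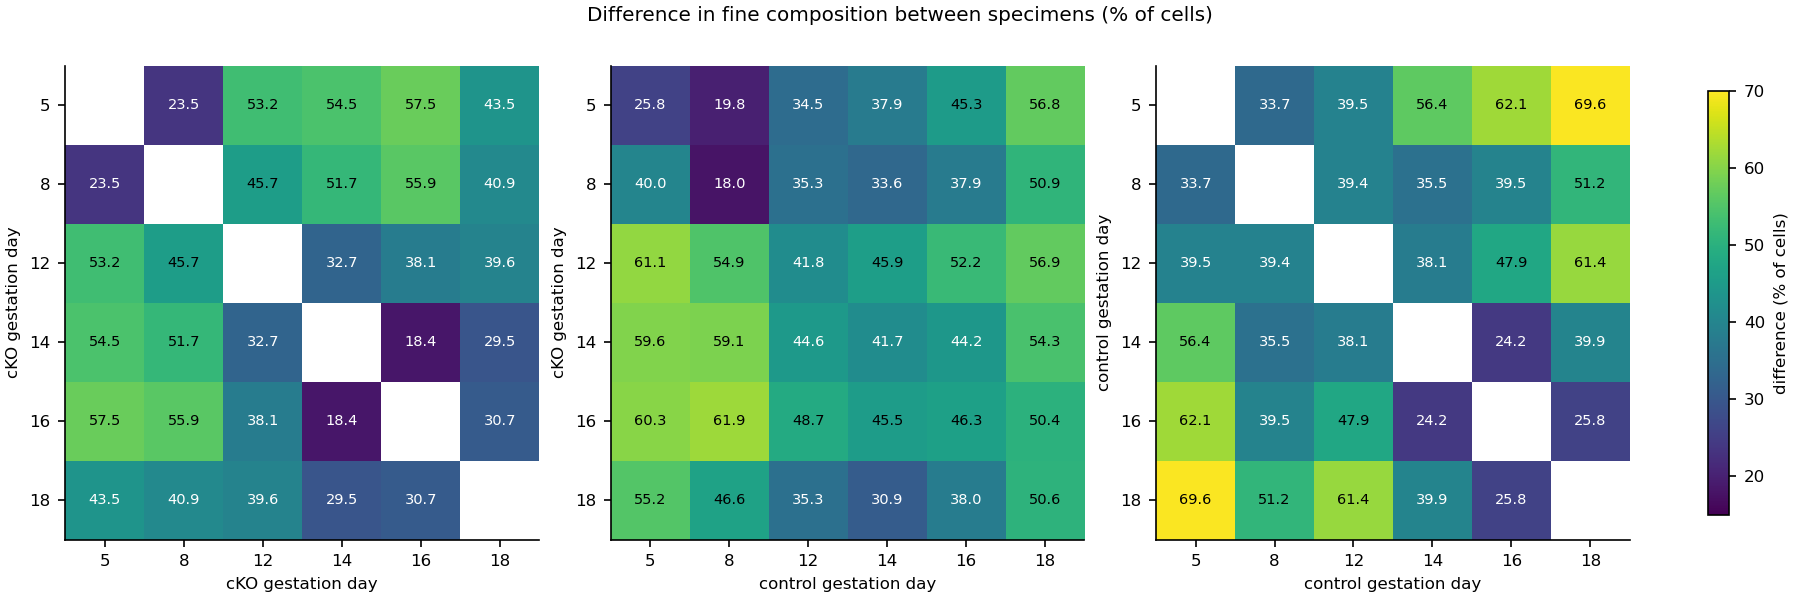
Difference in fine cluster composition between specimens (% of cells that would have to move, printed in each cell and coloured), among cKO days (left), between cKO days (vertical) and control days (horizontal) in the middle, and among control days (right). The cKO row of day 18 has its lowest value, 30.9%, at control day 14, and the control panel reaches 69.6% between days 5 and 18.

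Counted over the 48 fine clusters tested between genotypes, the day of the highest share was day 5, 8, 12, 14, 16 and 18 for 10, 10, 7, 3, 10 and 8 clusters in cKO and for 13, 4, 11, 7, 4 and 9 in control. Between days 12 and 18, 3 clusters were higher and 8 lower at every later day in cKO, against 6 and 15 in control. This is a description of which days stand out, and the difference between genotypes was not tested.

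The phase calls, which the authors made per cell from S and G2M scores, were followed along the same days. G2M calls made up 11.3%, 13.5%, 17.8%, 12.7%, 9.33% and 7.47% of cKO cells. They were highest at day 12 and lower at each later day. Over all days the slope was -0.31 percentage points per day (exact permutation test over 720 orders, two-sided, p = 0.415, adjusted p = 0.415), and within days 12 to 18 it was -1.72 (exact permutation test, p = 0.0833, the smallest that 4 days allow). Median UMIs were also lower at each later day of that window, with a slope of -609 UMIs per day (exact permutation test, p = 0.0833). Among cells of 4000 to 10000 UMIs, G2M calls were 9.97%, 7.91%, 10.5%, 7.20%, 5.41% and 4.49%, so the order of days 12 to 18 was kept at this depth.

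In control, G2M calls were at 15.6%, 10.4%, 14.1%, 6.65%, 3.85% and 5.12%, so they too were lower after day 12. Between days 12 and 18 cKO lay above control at every day. The difference of slopes was 0.52 percentage points per day over all days and -0.23 within days 12 to 18, and did not pass over all days (exact permutation test over 64 genotype swaps, p = 0.188, adjusted p = 0.219).

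The cells called G2M changed place along the course. At day 5, 31.6% of the cKO cells called G2M were in coarse cluster 0, against 2.25% to 6.40% at days 12 to 18. At day 8, 34.3% of them were in coarse cluster 12, a cluster in which 80.1% of cKO cells carried that call. At day 14 coarse cluster 2 held 30.6%, and at day 18 coarse cluster 1 held 20%.

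Within clusters the day of the highest G2M share differed. In coarse cluster 1 it was 10.3%, 13.4%, 27.4%, 17.0%, 10.3% and 14.7% from day 5 to day 18, and in coarse cluster 2 it was 9.88%, 21.8%, 26.3%, 21.3%, 9.86% and 5.83%. Coarse cluster 13 went from 41.8% at day 12 to 22.3%, 7.58% and 0.787%. In that cluster median UMIs were 34776, 27671.5, 25724 and 18740 at the same days, and S calls went from 16.4% to 32.3% between days 12 and 18. Coarse cluster 0 went from 10.7% at day 5 to 0.937% at day 14, and coarse cluster 5 from 22.9% at day 5 to 7.03% at day 18. Coarse cluster 3 was highest at day 16, with 24.1%, and coarse cluster 7 at day 14, with 14.8% of 61 cells. Phase calls depend on depth, so they are not read as cycling.

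S calls made up 4.56%, 4.47%, 9.31%, 8.17%, 8.20% and 10.7% of cKO cells. Both early days lay below the later ones, with a slope of 0.46 percentage points per day (exact permutation test, p = 0.0264, adjusted p = 0.0528). Within days 12 to 18 the slope was 0.21 (exact permutation test, p = 0.583), and with days exchanged only inside an experiment p was 0.312 (exact permutation test, 48 orders, smallest possible p = 0.0417). The S calls followed the pool as well: pool 8 or pool 10 had the highest share in 6 of 6 cKO specimens and in 12 of 12 with control. Each specimen had 1 of these among its 2 or 3 pools. The highest G2M share was in pool 8 or 10 in 9 of 12 specimens. At cKO day 18 the pools gave S calls of 7.81%, 8.57% and 15.2%. Without pools 8 and 10, an alternative chosen after seeing the data, the slope was 0.39 (exact permutation test, p = 0.0375, adjusted p = 0.0750). The part of the pool in the S calls of each day was not tested beyond this.

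**Figure D5:**
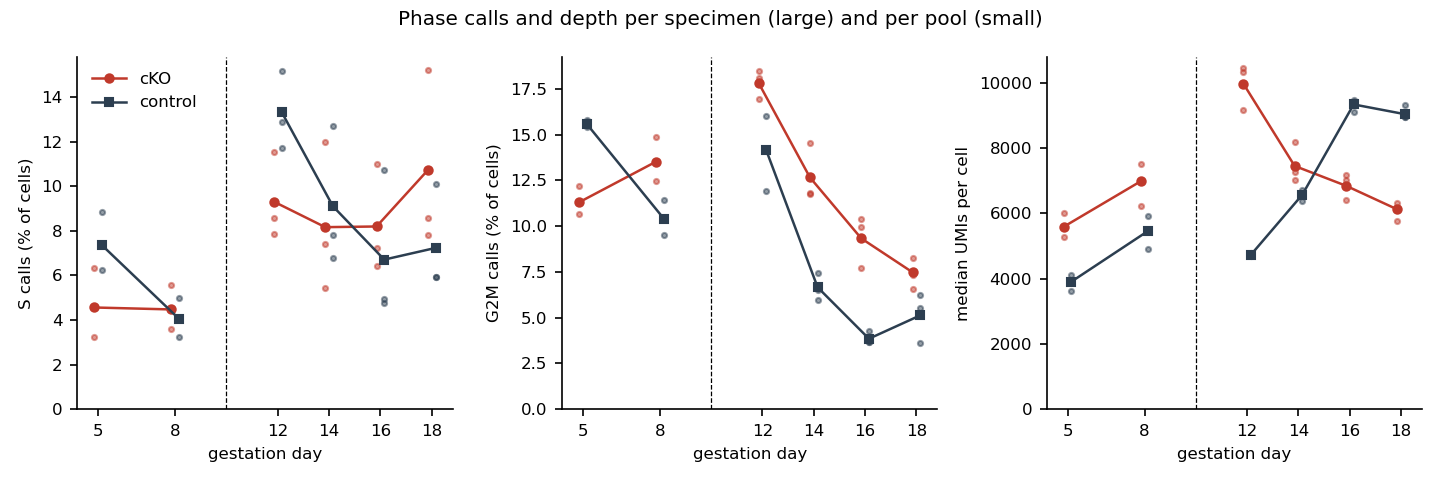
S calls (% of cells, left), G2M calls (% of cells, middle) and median UMIs per cell (right) against gestation day, with large markers for specimens and small ones for their pools, cKO in red and control in dark blue, and a dashed line between the experiments. In cKO the G2M share goes from 17.8% at day 12 to 7.47% at day 18 while median UMIs go from 9978 to 6122, and the S share of 1 pool of cKO day 18 stands at 15.2%.

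Of the cell quality medians, UMIs, genes and mitochondrial percent were tested in cKO, and no slope over all days passed. The slopes were 39.8 UMIs, -6.14 genes and -0.00335 percentage points of mitochondrial UMIs per day (exact permutation tests, adjusted p = 0.835 each). The median percent of UMIs from ribosomal protein genes was not tested. It was 33.4%, 34.3%, 27.5%, 25.2%, 21.8% and 22.2% from day 5 to day 18 in cKO, so both early days lay above every later one, and 29.0%, 34.8%, 25.7%, 25.3%, 24.7% and 22.3% in control, where the same holds. Between genotypes the difference of slopes in median UMIs was -366 per day (exact permutation test, p = 0.0938, adjusted p = 0.219), and none of the 5 differences tested passed. Since depth and composition both differ by day and genotype, their parts in each other were not tested.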

How the data were processed

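The deposited annotation of each cell was used; it holds no gene values. Per the labels' protocols, minced tissue was frozen, digested, tagged with lipid-linked oligonucleotides, pooled and run on a droplet platform; Cell Ranger, Seurat and mm10 are named in the submitters' processing notes, without versions. Per the file headers, it gives the UMI and gene count per cell as raw counts, and the authors deposited the percent of UMIs from mitochondrial (at most 20%) and ribosomal protein genes, Louvain clusters and a phase call. The filtering of cells and their assignment to specimens are the authors' own, the rules are not stated, and no further doublet calling was run. The labels name pools only, so genotype, site, day and experiment come from the annotation. Depth could not be equalised between cells.

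A specimen is the sum of its pools, which are not replicates. Cells per cluster and specimen were tested with edgeR 4.0.16 (R 4.3.3; quasi-likelihood F test, total cells as library size, no composition factor, clusters of at least 10 cells on average, Benjamini-Hochberg, threshold 0.05), the standard error being the log2 slope over the root of F. Slopes used the day as a number; the difference of slopes used the day as a factor with genotype and genotype by day. Shares of phase calls and medians used two-sided exact permutation tests. With 1 specimen per day, slopes measure the spread of days around a line, with 4 to 2 residual degrees of freedom per cluster. The edgeR test also draws on the spread pooled over the clusters tested, so its p-values rest on more than these. Scripts were tested on simulated counts. Also tried were DESeq2 1.42.0, TMM factors, limma 3.58.1 fitted to logit shares (0.5 cells added), other cell filters, an experiment term and leaving out each specimen; leaving out pools 8 and 10 was added after seeing the data.

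Named are all coarse clusters, fine clusters that passed in cKO or in a difference of slopes, and the 5 largest by mean cKO share. Members, lists and tests were chosen with earlier results of these data known. Depths stand with the specimens; the figures were drawn with matplotlib 3.10.9.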

Additional observations from a re-analysis of the deposited data

Results flagged for a closer look

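The slope of the share on gestation day differed between cKO and control inter-implantation tissue by a direct test (edgeR, adjusted p under 0.05) for the following clusters, all given with their courses above. Among coarse clusters the log2 differences per day, cKO minus control, were 0.19 for cluster 2, 0.36 for cluster 13 and 0.63 for cluster 15.

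Among fine clusters they were -0.31 for cluster 0 and -0.33 for cluster 3. The positive ones were 0.29 for cluster 7, 0.27 for cluster 9, 0.29 for cluster 13, 0.36 for cluster 28, 0.53 for cluster 38 and 0.45 for cluster 42. Fine clusters 7 and 42 are parts of coarse cluster 2, fine cluster 28 is nearly all of coarse cluster 13 and fine cluster 38 holds coarse cluster 15, so these are not separate findings. Coarse cluster 15 and fine cluster 38 met the cell filter through cKO, and were too rare in control alone to be tested over all days. The difference over days 12 to 18 alone was 0.83 for coarse cluster 11. Among fine clusters it was 0.69 for cluster 1, 0.91 for cluster 14, 0.79 for cluster 17, 0.83 for cluster 18, 0.63 for cluster 29 and 0.67 for cluster 32. It was -0.69 for cluster 24 and -0.68 for cluster 49. Fine cluster 18 is nearly all of coarse cluster 11.

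With 1 specimen per genotype and day, no gap between replicates was tested.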

How the results depend on the processing

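Genotypes were paired by day throughout, through the day as a factor in the difference of slopes and through swaps within a day. No pairing by replicate number was made, since the labels give the specimens none. Settings moved the counts of clusters called more than the direction of single slopes, and single calls were often lost. Of 21 alternatives, the difference of slopes kept its call in 10 for coarse cluster 2, 7 for fine cluster 9 and 6 for fine cluster 13. It kept it in 14 of 21 for fine cluster 7 and in 14 of 20 for fine cluster 42.

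For cKO slopes over days 5 to 18, coarse calls numbered 8 with DESeq2, 8 with limma and 0 with the experiment as a covariate, where cluster 11 turned to 0.11, and ranged from 0 to 5 without 1 specimen. Fine calls numbered 9 with clusters of 50 cells, 12 with DESeq2, 5 with TMM, 7 with cells of at least 500 genes, 0 with the experiment, 5 without pools 8 and 10 and 5 with limma, and from 0 to 11 without 1 specimen.

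For cKO slopes within days 12 to 18, where neither partition had a call in edgeR, coarse calls were 1 with DESeq2, 1 with TMM, 1 without pools 8 and 10 and 0 to 1 without 1 specimen. Fine calls were 15 with DESeq2, 7 with TMM, 6 with 500 genes, 8 without pools 8 and 10, 3 with limma and 5 with no filter.

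For differences of slopes, coarse calls were 1 within days 12 to 18 and 0 to 4 without 1 specimen. Fine calls were 5 with clusters of 50 cells, 4 with 500 genes, 4 without pools 8 and 10 and 0 to 12 without 1 specimen. With TMM 8 fine differences passed, 4 positive and 4 negative, and with DESeq2 10, 4 positive and 6 negative. The main fit had 6 positive and 2 negative. Within days 12 to 18 the differences of coarse cluster 13, fine cluster 13 and fine cluster 28 turned to -0.0400, -0.0683 and -0.0266, and that of G2M calls to -0.23.

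The slope of median genes turned to 0.328 with 500 genes and ranged from -42.7 to 14.2 without 1 specimen. That of mitochondrial percent turned to 0.0550 within days 12 to 18 and ranged from -0.0162 to 0.0169 without 1 specimen. That of median UMIs turned to -609 within days 12 to 18 and ranged from -147 to 151.1 without 1 specimen. The cause of these changes was not tested. Depth could not be equalised, and shares of under about 0.2% rest on few cells.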

Other observations

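The makeup of coarse cluster 1 also differed by day in cKO. Fine cluster 24, in which 72.4% of cKO cells were called G2M, made up 32.6% of coarse cluster 1 at day 12 and 15.8%, 10.6% and 7.85% at days 14, 16 and 18. In control it stood at 7.04%, 7.91%, 7.84% and 13.1% of coarse cluster 1 at the same days. Fine cluster 3 made up 23.1%, 31.8%, 52.3% and 33.5% of coarse cluster 1 in cKO and 19.7%, 45.3%, 52.4% and 61.9% in control. As a share of all cells, fine cluster 24 stood at 3.40%, 2.54%, 1.76% and 0.801% on these days in cKO. The control shares were 0.565%, 1.24%, 1.024% and 3.07%, and its difference of slopes within days 12 to 18 was -0.69 (SE 0.24, adjusted p = 0.0296, edgeR).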
